A study of Homo sapiens with 12 samples.

Results

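Interferon-stimulated effector genes are the 42 genes followed here, named by symbol as a list of antiviral effectors and of the proteins that work beside them. For each gene 1 probe set was used, the brightest on average among those annotated to that gene alone, and all 42 were measured, of 19775 genes on the array. Their level was read in 4 lines made from the human breast cancer cell line SKBR-3, which has many copies of the HER2 gene, at 3 biological replicates and 1 array per replicate. SKR6LR are SKR6 cells kept for months in lapatinib, a kinase inhibitor of HER2 and EGFR, at doses raised from 0.2 to 5 µM. SKR6CA are SKR6 cells with a retrovirus that expresses an always-active form (CAp65) of relA/p65, the transcription-activating subunit of NF-κB, and that were selected with puromycin. SKR6-Vector are SKR6 cells with the empty retrovirus pQCXIP, selected with puromycin. SKR6 are SKBR-3 cells sorted for high HER2, and neither a virus nor a drug is given for them. All lines were seeded in RPMI medium with 10% serum and grown for 48 hours before RNA was taken, and cells spelled SKLR in the growth protocol, a name that differs from SKR6LR, were kept in 0.2 µM lapatinib. Whether any line is a single clone or was derived more than once is not given, so p-values measure the spread between cultures of 1 derivation as far as the labels show.

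Interferons are secreted proteins that cells release when sensors detect viral RNA or DNA. Type I and type III interferons bind separate receptors, and both lead through JAK kinases to a STAT and IRF9 complex that binds the interferon-stimulated response element (ISRE) in target promoters, while type II interferon leads to a STAT dimer that binds the GAS element. The targets include enzymes that sense or cut RNA, proteins that stop translation or membrane fusion, and the ubiquitin-like modifier ISG15 with its conjugating enzymes. In breast cancer cells such genes are also known to be active without infection.

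Promoter sequence was the feature of the members that their choice by name did not use. RefSeq windows of assembly GRCh38.p14, each of 300 bases from 250 before an annotated start to 50 after it, were at hand for 35 of the 42 members (48 windows, since some genes have several starts). The ISRE core was searched on both strands as TTTCNNTTTC and its complement GAAANNGAAA. It was found in 27 of the 35 members (77.1%), against 4.38% of all 27305 genes with a window and 3.57% of all 35116 windows. More than 1 match lay in 15 members. The GAS motif TTCNNNGAA, which reads the same on both strands in its fixed letters, was found in 10 of 35 members (28.6%), against 9.38% of all genes, and in 5 of them (BST2, EPSTI1, IFI27, IFITM1 and MX1) the match overlapped an ISRE core. The κB consensus was found in 5 of 35 members (14.3%), against 13.3% of all genes. A match is a string of letters and was not tested as a bound site.

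**Figure D1:**
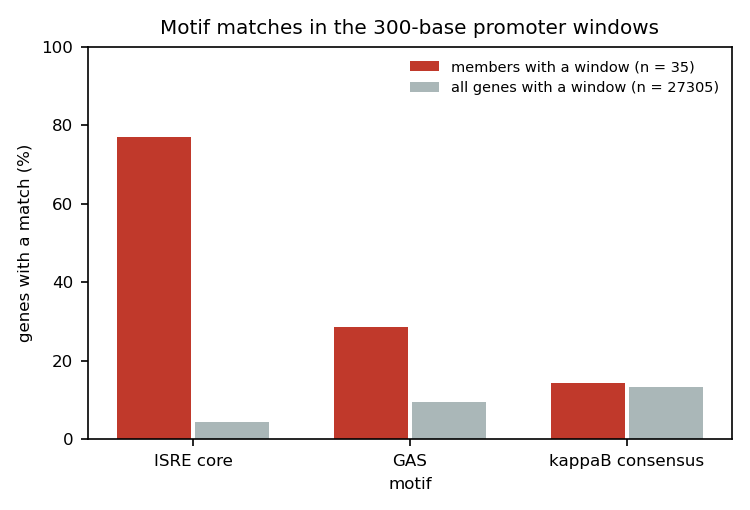
Share of genes (%) with at least 1 match to each of 3 motifs in the 300-base promoter windows, for the 35 members with a window (left bar) and for all 27305 genes with a window (right bar). The ISRE core was matched in 77.1% of members and 4.38% of all genes, while the κB consensus was matched in 14.3% and 13.3%.

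Stretches from 170 bases before the start to 25 bases from the start on are printed for 8 members. They come from 8 role groups, 1 from each, and responded by very different amounts. Only members with an ISRE core match were eligible, so a match in all 8 was fixed by the choice. Within a group the eligible member with the largest SKR6LR difference was taken, among those with values given on every array. The last group, that of SAMD9 and SP100, was cut by the limit of 8. Its eligible members, LGALS3BP and EPSTI1, did not pass in SKR6LR against SKR6, while all 8 printed members rose there. ISRE core matches are in capitals. The first transcribed base is position 0.
OAS3: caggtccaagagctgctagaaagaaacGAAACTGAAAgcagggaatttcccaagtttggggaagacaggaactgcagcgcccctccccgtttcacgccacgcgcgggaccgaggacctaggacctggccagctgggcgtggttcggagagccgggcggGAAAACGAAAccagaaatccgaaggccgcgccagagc
IFIT1: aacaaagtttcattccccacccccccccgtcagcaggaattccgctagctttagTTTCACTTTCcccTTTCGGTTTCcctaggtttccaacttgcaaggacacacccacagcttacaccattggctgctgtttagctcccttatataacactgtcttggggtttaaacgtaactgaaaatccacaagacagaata
MX1: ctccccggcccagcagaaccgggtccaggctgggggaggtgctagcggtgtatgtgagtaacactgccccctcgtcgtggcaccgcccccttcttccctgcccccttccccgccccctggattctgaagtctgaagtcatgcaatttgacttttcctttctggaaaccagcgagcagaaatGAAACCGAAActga
HERC5: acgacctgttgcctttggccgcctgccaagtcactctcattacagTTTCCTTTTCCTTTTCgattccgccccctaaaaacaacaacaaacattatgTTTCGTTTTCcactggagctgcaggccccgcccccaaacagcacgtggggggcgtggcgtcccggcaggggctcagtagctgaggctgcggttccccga
IFITM1: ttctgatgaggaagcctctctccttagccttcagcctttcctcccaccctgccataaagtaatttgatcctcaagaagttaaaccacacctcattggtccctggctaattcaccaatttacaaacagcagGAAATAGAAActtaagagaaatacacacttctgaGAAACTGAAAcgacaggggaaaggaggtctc
IFI44L: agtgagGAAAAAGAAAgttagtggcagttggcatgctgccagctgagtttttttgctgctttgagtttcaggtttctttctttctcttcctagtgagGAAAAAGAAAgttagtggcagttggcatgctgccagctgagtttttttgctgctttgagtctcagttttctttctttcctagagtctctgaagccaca
DDX60: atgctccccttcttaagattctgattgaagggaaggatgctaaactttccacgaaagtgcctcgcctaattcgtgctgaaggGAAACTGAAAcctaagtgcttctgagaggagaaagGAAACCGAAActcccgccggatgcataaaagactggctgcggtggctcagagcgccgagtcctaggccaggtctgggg
PARP14: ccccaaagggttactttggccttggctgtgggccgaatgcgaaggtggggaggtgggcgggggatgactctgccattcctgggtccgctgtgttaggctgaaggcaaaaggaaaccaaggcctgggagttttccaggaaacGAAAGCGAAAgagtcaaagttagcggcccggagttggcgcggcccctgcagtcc

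The OAS3 stretch lies at chr12:112938304-112938498, plus strand, and its matches begin at positions -143 and -12. In IFIT1 (chr10:89392453-89392647, plus strand) a pair of matches lies close together, at -116 and -103. In MX1 (chr21:41420388-41420582, plus strand) the single match begins at position 11, inside the transcript of 1 of the 3 starts of the gene. HERC5 (chr4:88456949-88457143, plus strand) has 3 matches, of which those at -125 and -119 overlap. In IFITM1 (chr11:313870-314064, plus strand) the matches begin at -40 and -6. In IFI44L (chr1:78620278-78620472, plus strand) the same letters occur at -164 and -73, within a longer repeated stretch. In DDX60 (chr4:168318728-168318922, minus strand) they begin at -88 and -53, and in PARP14 (chr3:122680669-122680863, plus strand) at -29.

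The deposited log2 values had array medians between 5.74 and 5.77. The SKR6LR arrays varied more among themselves than the others, with a replicate SD over all genes of 0.209, against 0.107 in SKR6CA, 0.097 in SKR6-Vector and 0.096 in SKR6. SKR6LR replicate 3 had the largest actin 3′ minus 5′ difference, a sign of RNA quality, at 2.319 against 1.031 to 1.726 on the other arrays. Epithelial and HER2 markers of SKBR-3 (ERBB2, GRB7, EPCAM, KRT8, KRT18 and KRT19) were above the median of all genes in every line, 6 of 6, but not at 1 level: in SKR6LR against SKR6, ERBB2 fell by 1.38, GRB7 by 1.28 and KRT19 by 0.94, KRT18 and KRT8 rose by 0.63 and 0.45, and EPCAM had 0.11 and did not pass. ERBB2 averaged 12.45 in SKR6LR and 13.83 in SKR6. The part of these shifts in the effector results was not tested. In bulk RNA a lower level can come from fewer cells that express a gene or from less RNA per cell, which cannot be told apart here.

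In SKR6LR the effector genes were higher than in SKR6 almost throughout. Of the 42 members 37 rose, 0 fell and 5 missed the threshold (limma, adjusted p under 0.05 over all genes), where 21.4% of all genes rose and 31.0% fell. At an unadjusted p under 0.05 limma gave 1 lower member, BST2, and the share of all genes at that cut was not taken. No member had every SKR6LR array below every SKR6 array, which was true of 34.9% of all genes. The median log2 difference of the members was 3.16, against -0.058 for all genes. A difference of at least 1 was reached by 36 of the 42 members and of at least 3 by 22. Of all 19775 genes 1498 and 381 rose by as much. In 37 members every SKR6LR array lay above every SKR6 array, which was true of 23.0% of all genes, and in 36 members every SKR6LR array lay above all 9 arrays of the other lines, which was true of 16.2% of all genes. The median level of the members was 9.85, 11.22 and 11.02 on the SKR6LR arrays and between 6.16 and 6.64 on the 9 others.

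**Figure D2:**
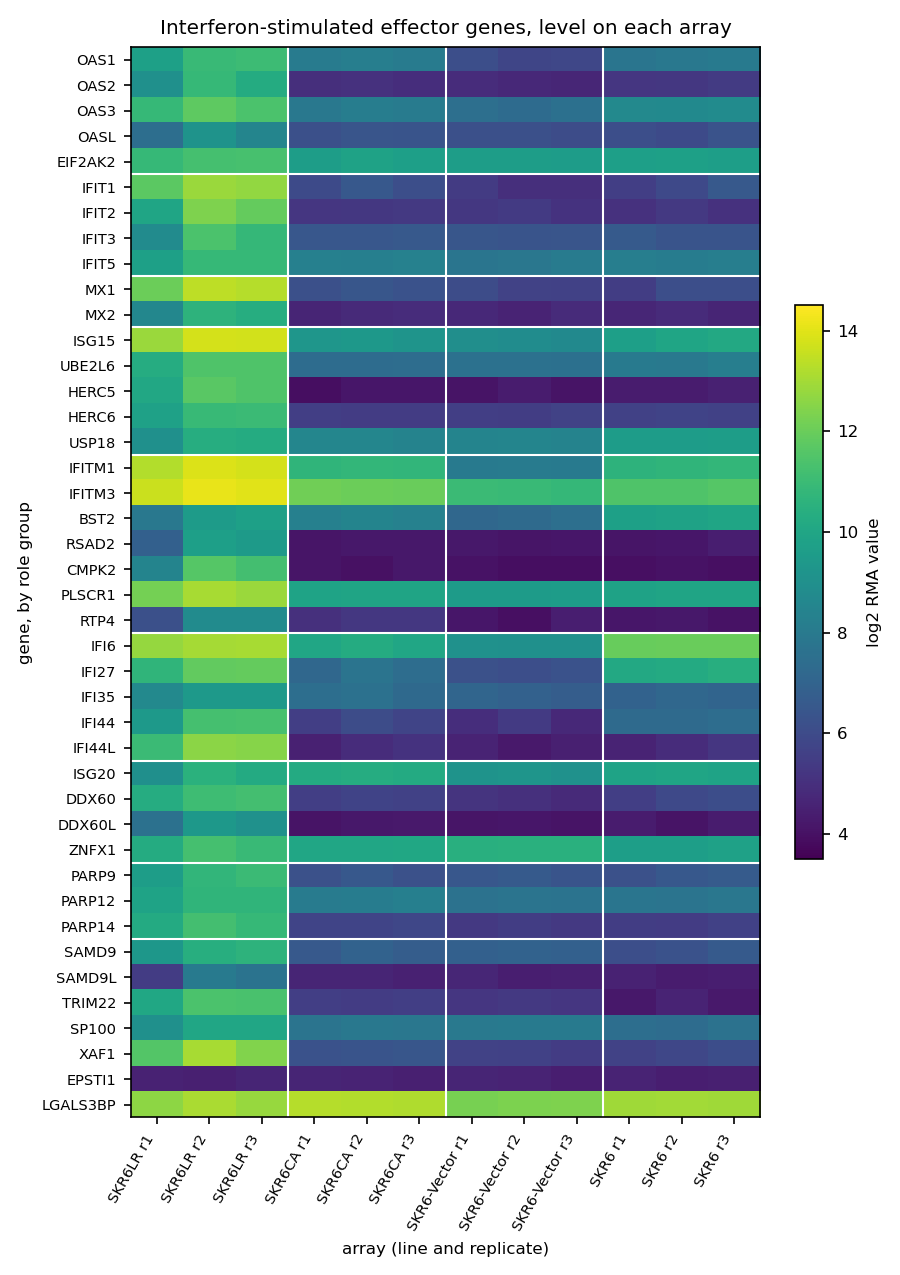
Level (log2 RMA value, colour) of each of the 42 members (rows, in the 9 role groups separated by white lines) on each of the 12 arrays (columns, 3 replicates per line). The 3 SKR6LR columns are brighter than the rest in most rows, SKR6LR replicate 1 less so than replicates 2 and 3, while EPSTI1 stays near 4.5 on every array.

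All 5 members of the double-stranded RNA response rose in SKR6LR. OAS2, which makes short oligoadenylates that switch on a latent ribonuclease, had 9.0, 10.89 and 10.25 in SKR6LR, against 5.22, 5.29 and 5.40 in SKR6. Even the lowest SKR6LR array stood far above the highest SKR6 array, and the difference was 4.74 (SE 0.329, adjusted p = 6.78e-08). OAS1 and OAS3, enzymes of the same family, rose by 2.71 and 2.61. OASL, a relative that lacks the enzyme activity, rose by 2.22, and EIF2AK2 (PKR), the kinase that stops translation when it meets double-stranded RNA, by 1.44.

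The 4 IFIT genes, whose proteins bind RNA, all rose, with differences from 2.32 to 6.43. IFIT1 had 11.73, 12.86 and 12.71 in SKR6LR, against 5.52, 5.91 and 6.56 in SKR6. The groups did not overlap and the difference was 6.43 (SE 0.300, adjusted p = 1.43e-09). IFIT2 rose by 6.28, IFIT3 by 3.91 and IFIT5 by 2.32, and the size depended on the probe set: a second one gave 3.44 for IFIT2 and 7.41 for IFIT3. Both MX genes, which code for dynamin-like GTPases that block incoming viruses, rose as well. MX1 had 12.01, 13.42 and 13.27 in SKR6LR, against 5.51, 6.13 and 6.15 in SKR6, a difference of 6.97 (SE 0.303, adjusted p = 7.25e-10). MX2 rose by 5.13.

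In the ISG15 system the modifier, its conjugating enzyme and both HERC ligases rose, while the protease did not pass the test. HERC5, the main human ISG15 ligase, had 10.10, 11.68 and 11.47 in SKR6LR, against 4.32, 4.35 and 4.51 in SKR6, with a difference of 6.69 (SE 0.302, adjusted p = 1.05e-09). It lay below the array median on every SKR6 array and above it on every SKR6LR array. HERC6, which acts as an ISG15 ligase in the mouse, rose by 4.91, and UBE2L6, the conjugating enzyme, by 3.01. ISG15 itself had 12.84, 13.78 and 13.76 in SKR6LR, against 9.72, 9.95 and 10.13 in SKR6, a difference of 3.53 (SE 0.204, adjusted p = 1.15e-08). USP18 removes ISG15 from proteins and also restrains the type I interferon receptor. It had 9.03, 10.34 and 10.25 in SKR6LR, against 9.59, 9.56 and 9.63 in SKR6. Replicate 1 lay below all 3 SKR6 arrays and the other two above them, so the groups overlapped and the difference of 0.28 (SE 0.252, adjusted p = 0.389) did not pass. Without SKR6LR replicate 1 the difference was 0.70 (adjusted p = 1.79e-06).

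Of the 7 membrane and nucleotide genes 6 rose. CMPK2, a mitochondrial nucleotide kinase, had 8.46, 11.59 and 11.22 in SKR6LR, against 3.93, 4.03 and 3.93 in SKR6. It had the widest SKR6LR spread of the members (SD 1.71), yet the groups were far apart, with a difference of 6.46 (SE 0.574, adjusted p = 7.13e-07). RSAD2 (viperin), which makes a chain-ending nucleotide, rose by 4.46. RTP4, a trafficking chaperone of receptors, rose by 3.81 and the scramblase PLSCR1 by 2.80. IFITM1, which blocks the fusion of viruses at the cell surface, had 13.24, 13.91 and 13.78 in SKR6LR, against 10.60, 10.68 and 10.78 in SKR6 (difference 2.96, SE 0.132, adjusted p = 9.27e-10). Its endosomal relative IFITM3 rose by 2.41. IFITM genes are close copies of each other, and another probe set of the array is annotated to both IFITM1 and IFITM2, so signal may be shared within the family.

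BST2 (tetherin), which holds budding virus particles on the cell surface, was the exception in this group. It had 7.91, 9.53 and 9.77 in SKR6LR, against 9.77, 9.83 and 9.96 in SKR6. SKR6LR replicates 1 and 2 lay below all SKR6 arrays and replicate 3 was level with the lowest of them, and the difference of -0.78 (SE 0.348) did not pass (adjusted p = 0.0808). It passed without SKR6LR replicate 2 (-1.01, adjusted p = 0.043), without SKR6LR replicate 3 (-1.13, adjusted p = 0.0157) and with one weight per line (-0.78, adjusted p = 0.0446).

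The 5 small IFI proteins all rose but by very unequal amounts. IFI44L had 11.01, 12.58 and 12.52 in SKR6LR, against 4.60, 4.90 and 5.24 in SKR6, a difference of 7.13 (SE 0.338, adjusted p = 1.66e-09). Its SKR6 values lay below the array median, and without a detection call the size of a difference from such a level is uncertain. The same holds for other members that were low in SKR6, where 20 of the 42 lay above the median of all genes. Its neighbour IFI44 rose by 3.31 and IFI35, a leucine zipper protein, by 2.14. IFI27 and IFI6, which act at mitochondria and other inner membranes, lay above the array median on every SKR6 array. IFI27 had 10.70, 11.85 and 11.92 in SKR6LR, against 10.15, 10.22 and 10.38 in SKR6, a difference of 1.24 (SE 0.256, adjusted p = 0.00113). IFI6 had 12.77, 13.01 and 13.06 in SKR6LR, against 11.93, 11.97 and 12 in SKR6, a difference of 0.98 (SE 0.0838, adjusted p = 4.84e-07). In both the groups were narrowly but fully separate.

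Among nucleases and helicases 3 of 4 rose. The helicase DDX60 had 10.31, 11.09 and 11.21 in SKR6LR, against 5.54, 5.91 and 6.09 in SKR6 (difference 5.02, SE 0.203, adjusted p = 3.75e-10). Its relative DDX60L rose by 4.44 and the helicase-like RNA sensor ZNFX1 by 1.12. ISG20, an RNA exonuclease, had 8.98, 10.52 and 10.24 in SKR6LR, against 9.89, 9.95 and 9.87 in SKR6. As for USP18, replicate 1 lay below and replicates 2 and 3 above the SKR6 arrays, and the difference was 0.012 (SE 0.280, adjusted p = 0.976). Without SKR6LR replicate 1 it was 0.48 (adjusted p = 0.00039).

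All 3 PARP proteins rose. PARP14, which transfers single ADP-ribose units, had 10.22, 11.20 and 10.89 in SKR6LR, against 5.51, 5.45 and 5.63 in SKR6, a difference of 5.24 (SE 0.181, adjusted p = 7.98e-11). A second PARP14 probe set had 0.072 (adjusted p = 0.674 over all probe sets). PARP9, which works with DTX3L, rose by 3.98, and PARP12 by 2.66.

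In the last group 5 of 7 rose. TRIM22, a ubiquitin ligase, had 10.05, 11.39 and 11.36 in SKR6LR, against 4.19, 4.60 and 4.27 in SKR6 (difference 6.58, SE 0.269, adjusted p = 4.22e-10). XAF1, a partner of the apoptosis inhibitor XIAP, rose by 6.47. The growth-restraining SAMD9 rose by 3.77, its neighbour SAMD9L by 2.62 and the nuclear body protein SP100 by 2.18. LGALS3BP, a secreted galectin-binding glycoprotein, had 12.65, 13.12 and 12.79 in SKR6LR, against 12.94, 12.96 and 12.95 in SKR6, and replicate 2 alone lay above SKR6 (difference -0.10, SE 0.0970, adjusted p = 0.451). Without SKR6LR replicate 2 it passed as lower, at -0.23 (adjusted p = 0.00807). EPSTI1, first known from contact of epithelium and stroma, had 4.57, 4.48 and 4.65 in SKR6LR, against 4.58, 4.44 and 4.48 in SKR6, and lay between 4.43 and 4.65 on all 12 arrays.

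The sizes given are those of 1 probe set per gene. Of the members that rose in SKR6LR 19 had further probe sets, and in 11 of these at least 1 gave a log2 difference more than 1.5 times away from the one printed. Among these 11, IFIT3 was the single member where a value that far away was larger. The smaller ones included 0.36 for PLSCR1, 0.40 for HERC6, 0.95 for OAS3, 2.01 for DDX60L and 2.65 for OAS2, and 0.33 to 0.82 on 3 probe sets of SP100. PARP14 was the single member that rose on its main probe set and did not pass on another.

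The 3 SKR6LR cultures did not carry the response to the same degree. Replicate 1 was the lowest of the 3 in 41 of 42 members, where it was the lowest in 37.5% of all genes, and EPSTI1 was the exception. Replicate 2 was the highest in 26 members and replicate 3 in 16. Replicate 1 minus the mean of replicates 2 and 3 had a median of -1.19 over the members, against -0.0057 over all genes, and was below 0 in 42 of 42 members, against 51.3% of all genes. The most negative value, -2.94, was that of CMPK2. The median SKR6LR SD of the members was 0.70, against 0.12 for all genes. The actin and GAPDH 3′ minus 5′ differences did not set replicate 1 apart: actin gave 1.186, 1.031 and 2.319 and GAPDH 0.159, 0.229 and 0.513 in replicates 1, 2 and 3.

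**Figure D3:**
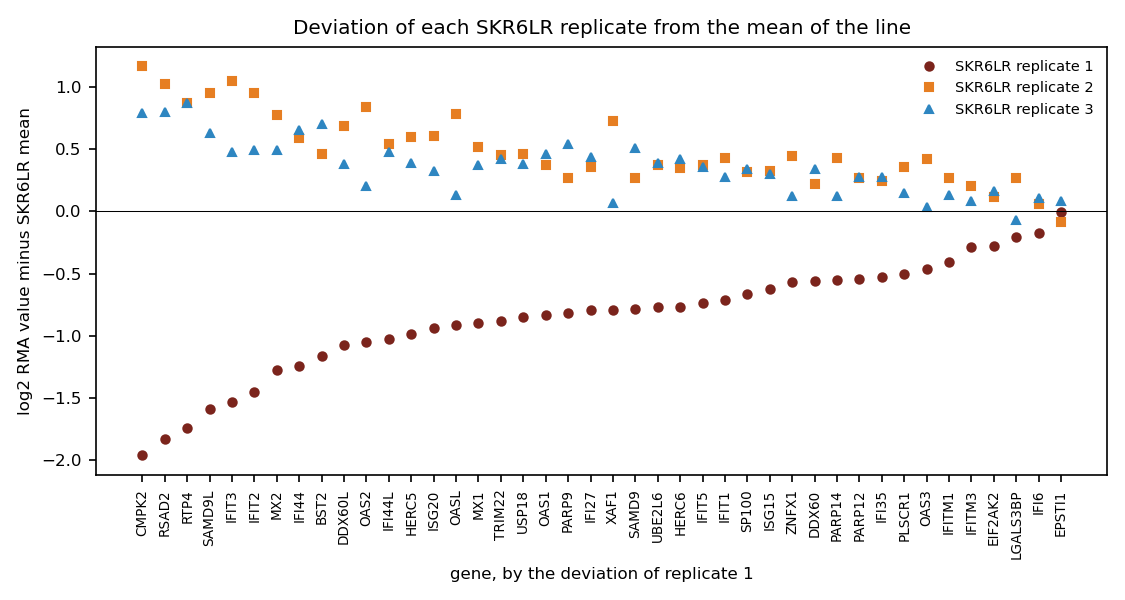
Deviation of each SKR6LR replicate from the mean of the line (log2 RMA value, vertical axis) for each of the 42 members (horizontal axis, ordered by replicate 1). The circles of replicate 1 lie below those of the other replicates in every member but EPSTI1, by more than 1 in the genes at the left.

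SKR6CA was set against SKR6-Vector to ask what active p65 adds to the vector and its selection. Of the 42 members 12 rose, 0 fell and 30 missed the threshold, where 11.7% of all genes rose and 14.9% fell. At an unadjusted p under 0.05 limma gave 17 higher and 1 lower, ZNFX1. The share of all genes at that cut was not taken, so these counts have no yardstick here. The median difference of the members was 0.38, against 0.0033 for all genes. A difference of at least 1 was reached by 8 of the 42 members and by 213 of all 19775 genes. In 26 members no SKR6CA array was as low as any SKR6-Vector array, which was true of 21.3% of all genes, and in 3 members the opposite held, against 24.2% of all genes. The test pools the spread of all 4 lines, and the SKR6LR spread is wide for these genes. Fitted on the 6 arrays compared alone, 23 members rose and 2 fell (33.5% of all genes were called in either direction), and without SKR6LR replicate 1 the counts were 22 and 2 (31% of all genes). The 2 were UBE2L6, with a difference of -0.19, and ZNFX1, with -0.44. Members that rose on the 6 arrays alone but missed the threshold in the main fit were OAS2, IFIT5, MX1, ISG15, PLSCR1, RTP4, IFI44, PARP12, PARP14, TRIM22 and XAF1. For these a missed threshold in the main fit does not show that the lines were alike. Without SKR6CA replicate 2 or without SKR6-Vector replicate 2 only 7 members rose.

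IFITM1 and OAS1 had the widest gaps between SKR6CA and the vector line, and in both the SKR6CA level was close to that of SKR6. IFITM1 had 10.71, 10.79 and 10.76 in SKR6CA, against 8.05, 8.06 and 7.99 in SKR6-Vector, a difference of 2.72 (SE 0.132, adjusted p = 2.61e-08). OAS1 had 8.08, 8.19 and 8.09 in SKR6CA, against 6.13, 5.79 and 5.86 in SKR6-Vector, a difference of 2.19 (SE 0.256, adjusted p = 4.32e-05). Both gaps were many times the spread between replicates. Against SKR6, which averaged 10.69 for IFITM1 and 7.89 for OAS1, the same SKR6CA arrays gave 0.067 and 0.23, and neither passed. Of the other members of the double-stranded RNA group OAS3 rose by 0.56, a call lost without SKR6CA replicate 2 or 3 or SKR6-Vector replicate 1 or 2, while OAS2, OASL and EIF2AK2 had 0.21, 0.17 and 0.12 and did not pass. OAS1, OAS3 and OAS2 follow each other on chromosome 12 with no coding gene between neighbours. IFITM3, the neighbour of IFITM1 on chromosome 11, rose by 1.13.

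The 12 members higher in SKR6CA than in SKR6-Vector were for the most part not higher than in SKR6. Set against SKR6, the same SKR6CA arrays gave 1 that rose (IFITM3) and 7 that did not pass. They gave 4 that fell: BST2, IFI6, IFI27 and OAS3, the last with a second probe set called higher. SKR6-Vector minus SKR6, which shares arrays with both, was -4.03 for IFI27, -2.94 for IFI6, -2.65 for IFITM1, -2.51 for BST2, -1.96 for OAS1, -1.25 for OAS3, -0.88 for IFIT1, -0.85 for DDX60, -0.64 for LGALS3BP and -0.60 for IFITM3, all of which passed, and -0.75 for ISG20 and -0.13 for IFI35, which did not.

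Of the 5 IFI proteins 3 were higher in SKR6CA than in SKR6-Vector. IFI27 had 7.19, 7.74 and 7.42 in SKR6CA, against 6.24, 6.15 and 6.26 in SKR6-Vector (difference 1.23, SE 0.256, adjusted p = 0.00307), and IFI6 rose by 1.08. IFI35 rose by 0.52 at an adjusted p of 0.0496, which was lost without any 1 of the SKR6, SKR6-Vector or SKR6CA arrays. IFI44 and IFI44L had 0.76 and 0.40 and did not pass. ISG20 had 10.24, 10.31 and 10.23 in SKR6CA, against 9.14, 9.24 and 9.08 in SKR6-Vector, a difference of 1.11 (SE 0.280, adjusted p = 0.0104). LGALS3BP had 13.29, 13.22 and 13.20 in SKR6CA, against 12.24, 12.32 and 12.37 in SKR6-Vector, a difference of 0.93 (SE 0.0970, adjusted p = 1.81e-05). Thus ISG20 and LGALS3BP, which did not pass in SKR6LR, stood clear of the vector line on every SKR6CA array. BST2 had 8.30, 8.46 and 8.33 in SKR6CA, against 7.19, 7.30 and 7.53 in SKR6-Vector, and its difference of 1.02 (SE 0.348) was close to the threshold (adjusted p = 0.0477), which it missed without any 1 of the SKR6, SKR6-Vector or SKR6CA arrays.

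Several genes with the largest SKR6LR differences did not pass with active p65. IFIT1 rose by 1.10, with 5.99, 6.51 and 6.15 in SKR6CA, against 5.40, 4.99 and 4.97 in SKR6-Vector (SE 0.300, adjusted p = 0.0163), a call lost without SKR6CA replicate 2, SKR6-Vector replicate 2 or SKR6-Vector replicate 3. IFIT5, IFIT3 and IFIT2 had 0.40, 0.10 and 0.026. MX1 had 6.20, 6.43 and 6.26 in SKR6CA, against 6.04, 5.65 and 5.62 in SKR6-Vector (0.52, adjusted p = 0.265), and MX2 had 0.046. No member of the ISG15 system passed: ISG15 had 0.46, USP18 0.031, HERC6 -0.062, HERC5 -0.069 and UBE2L6 -0.19. On the arrays compared alone IFIT5, MX1 and ISG15 passed as higher and UBE2L6 as lower. DDX60 rose by 0.61 (adjusted p = 0.0426), a call lost without any 1 of the SKR6CA or SKR6-Vector arrays or SKR6 replicate 2, and DDX60L had 0.053.

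The remaining members stayed short of the threshold with active p65 in the fit of all 12 arrays. RTP4, with 5.03, 5.28 and 5.28 in SKR6CA, against 4.18, 3.97 and 4.44 in SKR6-Vector, had the largest such difference at 1.00 (SE 0.515, adjusted p = 0.199). Its SD in SKR6LR, a line not compared here, was 1.51. On the arrays compared alone limma gave RTP4 an adjusted p of 0.000461, and PLSCR1, PARP12, PARP14, TRIM22 and XAF1 passed too. XAF1 had 0.77 (adjusted p = 0.0556), and its second probe set had 1.07 (adjusted p = 0.0186 over all probe sets). PARP12, PARP14 and PARP9 had 0.46, 0.41 and -0.17. PLSCR1 had 0.36, CMPK2 0.16 and RSAD2 0.02. TRIM22 had 0.26, SAMD9L 0.053, EPSTI1 0.02, SP100 -0.13 and SAMD9 -0.14. Of the members with a promoter window, the ISRE core was matched in 10 of 12 that rose with active p65 and in 17 of 23 that did not pass. The κB consensus was matched in 3 of 12 and in 2 of 23, and these shares were not tested. In SKR6LR against SKR6 the ISRE core was matched in 23 of 31 that rose and in 4 of 4 that did not pass, also not tested.

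**Figure D4:**
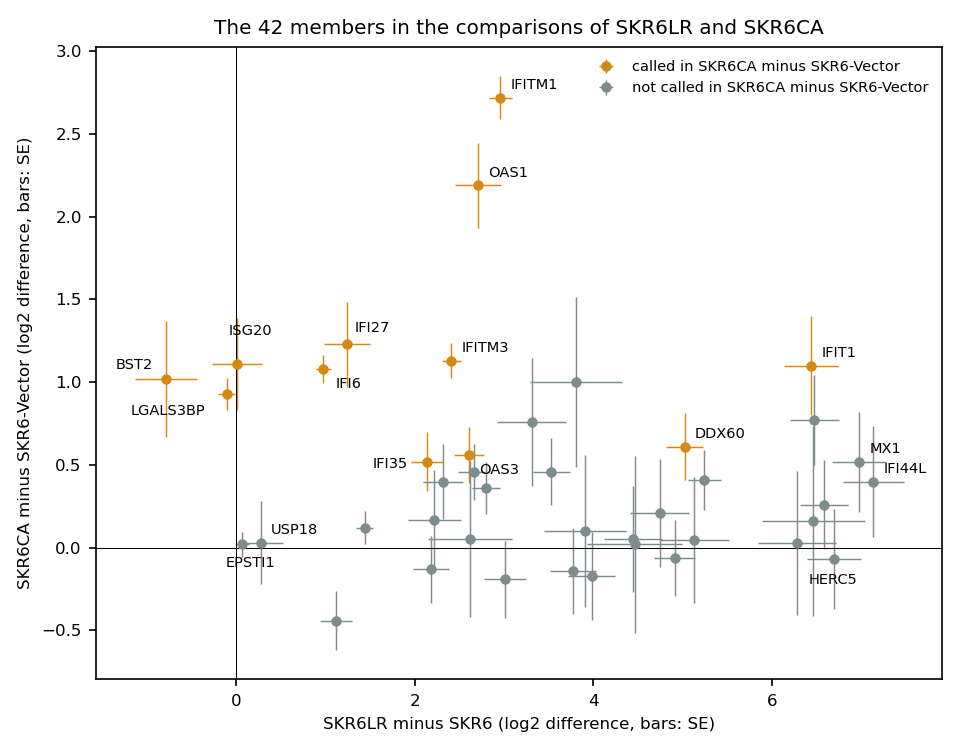
Log2 difference of each of the 42 members in SKR6LR minus SKR6 (horizontal) and in SKR6CA minus SKR6-Vector (vertical), with SE bars from limma, where orange points passed the test in the second comparison. Most points lie far to the right and near the horizontal zero line, IFITM1 and OAS1 lie high at 2.72 and 2.19, and BST2, ISG20 and LGALS3BP lie near or left of the vertical zero line.

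The difference between the SKR6LR effect and the SKR6CA effect was itself tested. These effects share no array. Of the 42 members 33 had a larger SKR6LR effect and 3 a smaller one, where the shares of all genes were 19.8% and 25.6%, and the median difference of effects was 2.69, against -0.065 for all genes. HERC5 (6.76), IFI44L (6.73), MX1 (6.45), TRIM22 (6.32), CMPK2 (6.30) and IFIT2 (6.25) led the 33. The 3 with a smaller effect in SKR6LR were BST2 (-1.80, adjusted p = 0.00916), ISG20 (-1.10, adjusted p = 0.0395) and LGALS3BP (-1.02, adjusted p = 4.52e-05). The ISG20 call was lost when any 1 of the SKR6, SKR6-Vector or SKR6CA arrays was left out. The PLSCR1 call was lost without _x_at or _s_at probe sets, where the difference of effects was 0.29 (adjusted p = 0.138), and the second OAS3 probe set gave -0.18 (adjusted p = 0.687 over all probe sets). The 6 that did not pass were OAS1 (0.51), USP18 (0.25), IFITM1 (0.24), EPSTI1 (0.051), IFI27 (0.0094) and IFI6 (-0.10). For OAS1 the SE was 0.362 and for IFI27 likewise 0.362, so these tests could miss differences well above that SE. In the same test ISG20 passed only narrowly at -1.10. Not passing therefore does not show that the effects were equal. Without SKR6LR replicate 1, OAS1 (0.93), USP18 (0.67) and IFITM1 (0.44) passed too.

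The empty vector line was lower than SKR6 in part of these genes. In SKR6-Vector 13 members fell, 2 rose and 27 did not pass, where 13.4% of all genes fell and 12.2% rose. The median difference was -0.20, against -0.015 for all genes. A fall of at least 1 was seen in 9 of the 42 members and in 150 of all 19775 genes. Every SKR6-Vector array lay below every SKR6 array in 21 members, which was true of 25.9% of all genes. SKR6-Vector was the line with the lowest mean in 28 of the 42 members, SKR6 in 10, SKR6CA in 4 and SKR6LR in 0, against 19.4%, 18.4%, 17.3% and 44.9% of all genes. The SKR6-Vector and SKR6 arrays used here are also the controls of the comparisons above, so these differences are not independent of them.

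IFI27 showed the widest gap. It had 6.24, 6.15 and 6.26 in SKR6-Vector, against 10.15, 10.22 and 10.38 in SKR6, and fell by 4.03 on the log2 scale (SE 0.256, adjusted p = 2.4e-07), or 16.4-fold. IFI6 had 9.06, 9.0 and 9.0 in SKR6-Vector, against 11.93, 11.97 and 12 in SKR6 (-2.94, SE 0.0838, adjusted p = 2.39e-10). IFITM1 had 8.05, 8.06 and 7.99 in SKR6-Vector, against 10.60, 10.68 and 10.78 in SKR6 (-2.65, SE 0.132, adjusted p = 2.64e-08). The replicates of each line lay close together, and the lines were apart by far more. BST2 fell by 2.51, with 7.19, 7.30 and 7.53 in SKR6-Vector, against 9.77, 9.83 and 9.96 in SKR6 (SE 0.348, adjusted p = 0.000179). IFI44 had 4.96, 5.37 and 4.75 in SKR6-Vector, against 7.31, 7.31 and 7.44 in SKR6 (-2.33, SE 0.386, adjusted p = 0.000714), but -0.39 on its other probe set (adjusted p = 0.69 over all probe sets).

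OAS1 had 6.13, 5.79 and 5.86 in SKR6-Vector, against 7.77, 7.89 and 8.0 in SKR6, and fell by 1.96 (SE 0.256, adjusted p = 0.000111). OAS3 had 7.51, 7.36 and 7.58 in SKR6-Vector, against 8.67, 8.74 and 8.80 in SKR6 (-1.25, SE 0.167, adjusted p = 0.000131). The second OAS3 probe set had -0.42 and did not pass (adjusted p = 0.209 over all probe sets). OAS2 had -0.52 (adjusted p = 0.31) with arrays that did not overlap. USP18 had 8.48, 8.51 and 8.44 in SKR6-Vector, against 9.59, 9.56 and 9.63 in SKR6 (-1.12, SE 0.252, adjusted p = 0.00568). ISG15 had 8.93, 8.84 and 8.70 in SKR6-Vector, against 9.72, 9.95 and 10.13 in SKR6 (-1.11, SE 0.204, adjusted p = 0.00149). In both the modifier and its protease the lines were separate. DDX60 fell by 0.85, LGALS3BP by 0.64, IFITM3 by 0.60 and IFIT1 by 0.88, the last at an adjusted p of 0.0499, a call lost without any 1 of the SKR6-Vector and SKR6CA arrays, SKR6 replicate 2 or 3, or SKR6LR replicate 3. TRIM22 rose by 0.91, a call lost without SKR6 replicate 1 or 3 or any SKR6-Vector array, and ZNFX1 rose by 0.76.

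**Figure D5:**
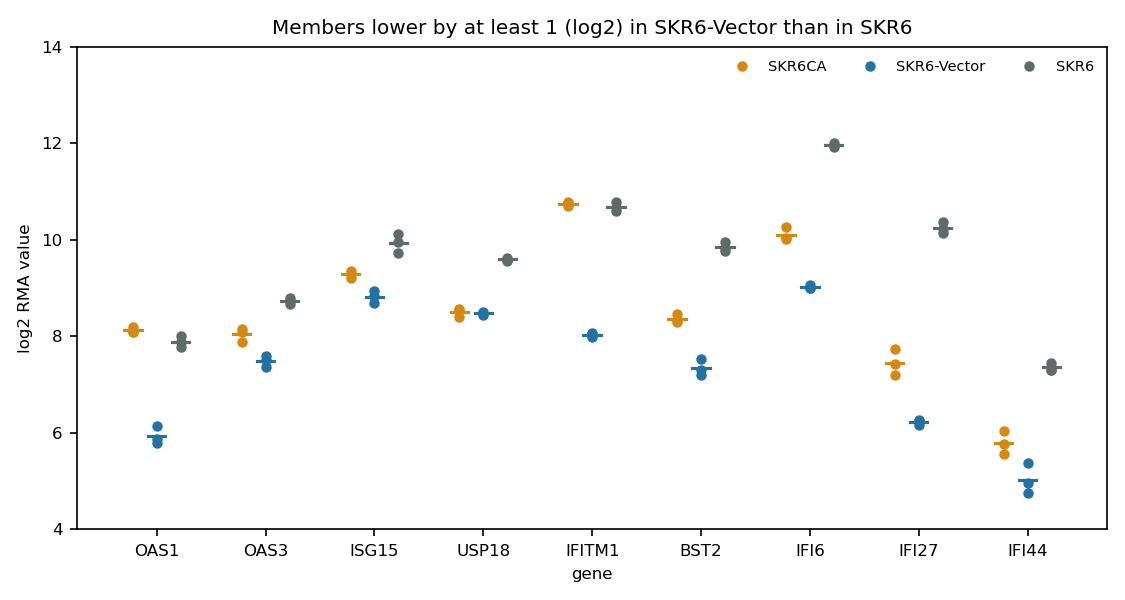
Level (log2 RMA value) of the 9 members that fell by at least 1 in SKR6-Vector against SKR6, on each array of SKR6CA, SKR6-Vector and SKR6 (points) with the mean of each line (short bar). In all 9 the SKR6-Vector points lie below the SKR6 points. The SKR6CA points reach the SKR6 level in OAS1 and IFITM1 but stay below it in IFI6, IFI27, IFI44, BST2, USP18, ISG15 and OAS3. The other probe sets of IFI44 and OAS3, not shown, were not called lower in SKR6CA than in SKR6.

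Set against SKR6 directly, SKR6CA had 2 members that rose, 7 that fell and 33 that did not pass, where 9.97% of all genes rose and 14.4% fell. The median difference was 0.069, against -0.013 for all genes. The lines did not overlap in 25 members, with SKR6CA above SKR6 in 14 (19.3% of all genes) and below it in 11 (26.2% of all genes). IFI27 (-2.80, adjusted p = 8.45e-06), IFI6 (-1.86, adjusted p = 1.83e-08), IFI44 (-1.57, adjusted p = 0.0103), BST2 (-1.49, adjusted p = 0.00755) and USP18 (-1.08, adjusted p = 0.00729) fell by at least 1. USP18 had 8.57, 8.55 and 8.40 in SKR6CA, against 9.59, 9.56 and 9.63 in SKR6. IFI44 had 5.55, 6.04 and 5.77 in SKR6CA, against 7.31, 7.31 and 7.44 in SKR6, but its other probe set gave a log2 difference of -0.30 (limma adjusted p = 0.77 over all probe sets). In IFITM1 the SKR6CA and SKR6 arrays overlapped, with a difference of 0.067 (SE 0.132, adjusted p = 0.787), and OAS1 had 0.23 (adjusted p = 0.6).

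The other members that passed were TRIM22, which rose by 1.17 with 5.54, 5.46 and 5.56 in SKR6CA, against 4.19, 4.60 and 4.27 in SKR6, IFITM3, which rose by 0.53, and ISG15 and OAS3, which fell by 0.64 and 0.70. The ISG15 call was lost without SKR6 replicate 2 or 3, SKR6-Vector replicate 2 or any SKR6CA array. OAS3 had 7.89, 8.15 and 8.08 in SKR6CA, against 8.67, 8.74 and 8.80 in SKR6 on its main probe set. The second OAS3 probe set was called in the opposite direction, at 0.71 (adjusted p = 0.0327 over all probe sets), and the mean of both gave 0.0037. OAS3 therefore has no settled direction in this comparison. Without SKR6LR replicate 1, 12 members rose in SKR6CA against SKR6 (29.5% of all genes were called in either direction).

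Other genes of the interferon pathway were read from 7 lists of 67 genes, of which 60 were measured here. In SKR6LR against SKR6, 31 rose (51.7%) and 7 fell (11.7%), where 21.4% of all genes rose and 31.0% fell. Of 18 interferon genes 4 rose (22.2%), a share near that of all genes, and 1 fell. IFNL2, a type III interferon, had 6.29, 8.98 and 8.24 in SKR6LR, against 4.86, 4.86 and 4.65 in SKR6 (difference 3.05, SE 0.482, adjusted p = 0.000135). Its sequence is nearly that of IFNL3, so the probe set may read both. IFNL1 rose by 1.43, IFNB1, the type I interferon of most tissues, by 1.20 and IFNE by 0.26, and IFNW1 fell by 0.32. IFNB1 had 5.19, 6.15 and 6.14 in SKR6LR, against 4.65, 4.47 and 4.74 in SKR6. In IFNL1, IFNL2 and IFNB1 SKR6LR replicate 1 was the lowest of the 3, which was true of 37.5% of all genes. These genes were picked because they rose, and the order in the other interferon genes is not given. A link to the effector genes was not tested.

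Of 9 receptors and JAK kinases 3 rose (33.3%) and 4 fell (44.4%) in SKR6LR, where 21.4% of all genes rose and 31.0% fell. IFNGR1, a type II receptor chain, rose by 2.56 and JAK2 by 1.12, while IFNAR1, a type I receptor chain, fell by 2.13 and IL10RB, a type III receptor chain, fell by 1.27. IFNAR1 had 7.40, 6.77 and 7.44 in SKR6LR, against 9.29, 9.40 and 9.32 in SKR6. Of 7 measured transcription factors 4 rose: IRF8 by 3.69, IRF9 by 2.69, IRF1 by 2.07 and IRF7 by 1.92. IRF9, the DNA-binding partner of the STAT complex, had 10.95, 11.91 and 11.46 in SKR6LR, against 8.47, 8.81 and 8.98 in SKR6. Of 8 sensors of viral RNA and DNA 7 rose, led by RIGI (3.76), IFI16 (3.70), IFIH1 (2.30) and DHX58 (1.69). All 5 brakes of the pathway rose by less than 1, SOCS1 by 0.83. All 6 measured partners of the effectors rose, among them DTX3L by 3.79 and IFITM2 by 2.21. Of 7 adaptors and kinases RNF135 and TRIM25 rose, by 1.74 and 1.09, and TICAM1 and MAVS fell, by 0.77 and 0.30. These made 28.6% higher and 28.6% lower, shares near those of all genes.

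In SKR6CA against SKR6-Vector 13 of the 60 pathway genes rose (21.7%) and 5 fell (8.33%), where 11.7% of all genes rose and 14.9% fell. Of the 18 interferon genes 0 passed, also at an unadjusted p under 0.05 (limma), and their differences lay between -0.12 and 0.16. IRF9 had 9.64, 9.61 and 9.65 in SKR6CA, against 8.08, 8.26 and 8.15 in SKR6-Vector, and rose by 1.47 (SE 0.190, adjusted p = 9.69e-05). IRF7 rose by 1.00, IRF1 by 0.70 and IRF3 by 0.47. The kinase IKBKE, a target and activator of NF-κB, rose by 1.05, IFITM2 by 0.95 and IFNGR1 by 0.69, while IFNAR1 fell by 0.80. RNF135, which modifies the sensor RIGI, had 8.18, 8.25 and 8.27 in SKR6CA, against 10.72, 10.71 and 10.74 in SKR6-Vector, and fell by 2.49, but the vector line itself stood apart here, since SKR6 had 8.07, 7.98 and 7.99.

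Markers of other cell types were read beside these results. In SKR6LR against SKR6, 21.4% of all genes rose and 31.0% fell. Of the leukocyte, fibroblast and endothelial markers 28.6%, 14.3% and 50% rose, and of the plasmacytoid dendritic markers 25% fell, in lists of 7 or 4. Of 7 measured leukocyte markers 2 rose in SKR6LR, CSF1R by 2.32 and CD14 by 1.72, and the mean marker level was 5.79 to 5.82 in SKR6LR, 5.22 to 5.37 in SKR6CA, 5.21 to 5.32 in SKR6-Vector and 5.10 to 5.23 in SKR6. PTPRC, the defining leukocyte marker, was at most 4.30 on any array. Of 7 fibroblast markers 1, COL3A1, rose in SKR6LR (mean marker level 6.12 to 6.21, against 5.51 to 5.55 in SKR6). COL3A1 averaged 9.49 in SKR6LR and 4.57 in SKR6 (difference 4.92), while LUM averaged 4.50 in SKR6LR and 4.45 in SKR6. Of 4 plasmacytoid dendritic markers, a cell type that makes much interferon, 1 fell and 3 did not pass, and CLEC4C had 3.86 in both lines. Of 4 endothelial markers 2 rose, with a mean marker level of 6.35 to 6.43 in SKR6LR, against 5.23 to 5.33 in SKR6. CDH5 rose by 3.83, with a mean of 8.98 in SKR6LR and 5.14 in SKR6, and also rose by 2.96 in SKR6-Vector and by 3.08 in SKR6CA against SKR6. VWF rose by 0.62 in SKR6LR, while KDR had 3.95 in SKR6LR and 3.87 in SKR6. The part of these markers in the results was not tested.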

How the data were processed

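RNA from 12 cultures was read on 3′ expression arrays with 54675 probe sets after T7 amplification and biotin labelling, per the labels' protocols. The deposited log2 values were made by the authors with RMA, per the submitters' processing notes, which also name limma; its version is not given in the sources used here. RMA normalises quantiles over all arrays, so levels are relative and small differences at low signal are compressed. Precision is limited by how few arrays there are, and there is no detection call. Probe sets differ in brightness, so a level was set only against the array median or, for marker lists, averaged, as a coarse guide.

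Genes were assigned to probe sets by the 2016 platform annotation and renamed by gene ID (41043 of 41097 single-gene probe sets matched) through RefSeq. A further 1801 probe sets name several genes and 11777 were unnamed here, and neither kind was used. Some genes of the pathway lists were not analysed here.

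All 12 arrays entered 1 limma 3.58.1 model in R 4.3.3 (lmFit, eBayes) with a mean per line and no filter. Adjustment was by Benjamini-Hochberg over 19775 genes, and a call is an adjusted p under 0.05. The script was tested on simulated data. The members and lists, the rules for printed genes and promoters (8 at most, 1 per role group) and the alternatives were chosen with earlier results of these data known. Values on every array are given for the leading called member of each role group in the SKR6LR and SKR6CA comparisons, members not called in SKR6LR, those that fell by at least 1 and those whose probe sets disagree; array values of RTP4 and of pathway genes, and further probe sets and markers, were chosen after they were seen.

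Alternatives: each array left out; the replicate number as a block; one weight per line; the mean of a gene's probe sets; leaving out _x_at and _s_at probe sets; only the arrays compared; an adjusted p under 0.01; median centring; cyclic loess; a low-value filter; a robust fit with a mean-variance trend.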

Additional observations from a re-analysis of the deposited data

How the results depend on the processing

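In SKR6LR against SKR6 all 37 calls were kept under every alternative run where the gene was tested. The filter on low values kept a gene that was above the array median on at least 3 of the 12 arrays. With it 36 of the 40 members tested rose. A member could pass this filter through the 3 SKR6LR arrays alone, so a call kept under it is no support for such a member. The number of members that fell was 1 with one weight per line and 0 to 2 when arrays were left out. In SKR6CA against SKR6-Vector 6 of 12 calls were kept throughout. There 20 members rose and 1 fell with one weight per line, 23 rose and 2 fell with only the arrays compared, 6 rose at an adjusted p under 0.01, and 7 to 22 rose and 0 to 2 fell when arrays were left out. With only the arrays compared 33.5% of all genes were called in either direction. The median there was 0.12 without _x_at or _s_at probe sets, where 33 members were tested, and 0.31 to 0.38 when arrays were left out. In SKR6-Vector against SKR6, 4 members rose with one weight per line and with only the arrays compared, 0 rose and 8 fell without _x_at or _s_at probe sets, 1 rose at an adjusted p under 0.01, and 1 to 4 rose when arrays were left out. The arrays compared alone gave calls in either direction for 37.1% of all genes. In SKR6CA against SKR6, 9 members rose with one weight per line, 12 with only the arrays compared, 0 without _x_at or _s_at probe sets and 2 to 12 when arrays were left out, and OAS3 turned to 0.0037 with the mean of its probe sets. Here the arrays compared alone gave calls in either direction for 32.7% of all genes. Where no share of all genes is given, a count shows only how the member calls moved. The median difference of effects was 3.15 without _x_at or _s_at probe sets and 2.32 to 3.37 when arrays were left out. In SKR6CA against SKR6-Vector, leaving out SKR6LR arrays or fitting only the arrays compared left the differences themselves unchanged, as in XAF1 at 0.77. There only the spread used by the test and the number of arrays changed. Apart from this, from fewer members tested without _x_at or _s_at probe sets and from fewer arrays in the leave-out fits, the cause was not tested.

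Arrays of the same replicate number did not deviate together (correlations from -0.034 to 0.095), so the numbers do not pair the samples. With the replicate block 13 members rose in SKR6CA against SKR6-Vector, and the counts of 37, 2 and 2 that rose in the other comparisons stood as before. The filter on low values left 40 members. Low signal without a detection call limits statements on members below the array median, such as EPSTI1.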
